A study of Mus musculus with 13 samples.

Results

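Transcripts of 10 genes of the mammalian circadian clock were followed across skeletal muscles of mice homozygous for muscular dystrophy with myositis (mdm), a deletion in the N2A-PEVK region of the titin gene Ttn that leads to progressive muscle degeneration. The genes were chosen by name, with earlier results of these data known: Arntl, Clock, Per1, Per2, Per3, Cry1, Cry2, Nr1d1, Nr1d2 and Dbp. All 10 were found among the 17924 genes of the deposited tables, and all 10 were among the 17069 genes that passed the filter on low counts. RNA-Seq data were available for 13 mdm libraries, 5 from the extensor digitorum longus (EDL), 5 from the psoas and 3 from the soleus, taken from mice of strain B6C3Fe a/a-Ttn mdm/J that were 29 to 42 days old. Every library carries the mdm deletion, and wild-type libraries were not analysed here, so no value below compares genotypes. Each label also carries a condition code that is not explained. Libraries were sequenced in several runs, and whether a code marks a mouse, a run or a date is not given, so a difference between codes cannot be told apart from a difference between mice or runs. Code T1 holds EDL replicate 1 (38 days) and T3 holds psoas replicate 1 (29 days), with the sex not given. Code T4 comprises, all from males, the EDL and psoas libraries numbered 2 (38 days) and the soleus libraries numbered 1 (33 days) and 2 (36 days). Code T5 is made up of the libraries numbered 3 of EDL and psoas (42 days, female). Code T6 contains, all at 38 days and without a stated sex, the numbers 4 and 5 of EDL, the same numbers of psoas and number 3 of soleus. The mice lived under a light-dark cycle and whole muscles were collected, but the time of day of collection is not given in the sources used here.

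The circadian clock is a feedback loop of transcription that most cells of the body run on a daily cycle, skeletal muscle included. The proteins of Arntl (BMAL1) and Clock bind E-box elements as a pair and activate the genes of the loop, the PER and CRY proteins accumulate and repress that pair, and the nuclear receptors REV-ERBα (Nr1d1) and REV-ERBβ (Nr1d2) repress Arntl through ROR elements. Dbp is a direct E-box target that activates other genes through D-boxes, where the repressor NFIL3 competes with it.

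Total counts ran from 9114176 to 48835209 per library, and the lowest raw count of any clock gene in any library was 19 (Per2, soleus replicate 3). Skeletal muscle markers were present in every library, with a summed normalized count of at least 279600 over 6 markers, and the 8 slow-fibre markers summed to 350100 or more in the soleus libraries and to 66550 or less in the others. Values below are normalized counts, that is, read counts divided by the library's size factor as deposited. The extracts are of whole tissue, in which fewer cells of a type and less RNA per cell cannot be told apart. EDL replicate 1, the only library of T1, stood apart in heat-shock genes, with a normalized count of 25690 for Hspa1a against at most 1412 in the other libraries.

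Measured per kilobase of exon, Nr1d2 was the most abundant clock transcript, with a mean normalized count of 430 per kb ± 187 (SD, n = 13), and it was above Cry2, the next in order, in 13 of 13 libraries. Cry2 followed at 99.7 ± 49.0, Clock at 94.2 ± 14.4, Per1 at 84.4 ± 58.5, Arntl at 67.5 ± 30.1, Dbp at 64.1 ± 38.4 and Nr1d1 at 59.5 ± 47.8 per kb. Cry1 (42.8 ± 17.7), Per2 (31.1 ± 21.3) and Per3 (23.8 ± 10.9) were the lowest. Apart from Nr1d2 and Cry2, each pair of neighbours in this order differed by less than the larger of their SDs, and no neighbour was the higher one in more than 9 of 13 libraries. The spread over the libraries differed between the genes. The highest normalized count was 17.8 times the lowest for Nr1d1, 13.3 times for Per2, 12 times for Dbp and 10.5 times for Per1. It was 5.09 times for Per3, 4.88 for Cry2, 4.86 for Nr1d2, 4.25 for Arntl and 3.13 for Cry1, and 1.60 times for Clock, against a median of 3.47 over all tested genes with no count of 0.

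**Figure D1:**
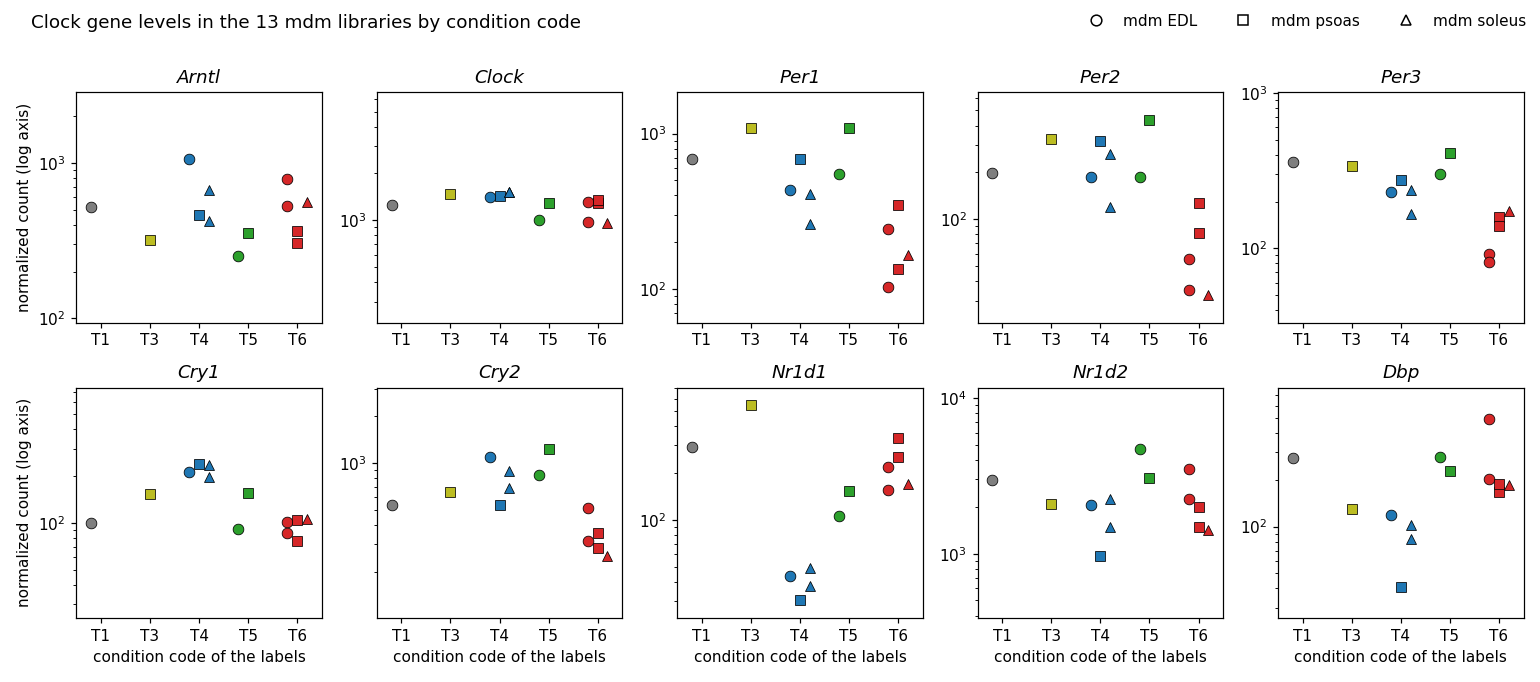
Normalized count (log axis; every panel spans the same fold range) of each clock gene in the 13 mdm libraries, by the condition code of the labels on the x axis, with 1 point per library and the shape giving the muscle. The 4 T4 libraries lie lowest for Nr1d1 (30.4 to 48.6) and highest for Cry1 (198 to 239), and the 5 T6 libraries lie lowest for Cry2 with no overlap with T4 (251 to 515).

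To ask whether the libraries of different codes differed in clock gene expression, codes T4, T5 and T6, which hold more than 1 library each, were compared in an edgeR quasi-likelihood fit with muscle and code as factors. A gene was called at a Benjamini-Hochberg adjusted p under 0.01 over all 17069 genes and an absolute log2 fold change over 1. Between T6 and T4, Nr1d1 was 5.31-fold higher in T6 while Per2 was 4.09-fold and Cry1 2.32-fold lower, and these 3 of the 10 clock genes were called, against 1.15% of all genes. At an adjusted p under 0.05, 7 of the 10 passed, against 7.42% of all genes. These were Per1, Per2, Per3, Cry1 and Cry2, all lower in T6, and Nr1d1 and Dbp, both higher. In 5 of the 10 the T6 and T4 libraries did not overlap, against 8.31% of all genes, with Nr1d1 and Dbp above and Clock, Cry1 and Cry2 below. DESeq2 called Per1, Cry2 and Dbp in addition (adjusted p of 0.00289, 0.000127 and 8.9e-05), where it called 3.64% of all genes.

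Nr1d1, the heme-binding repressor REV-ERBα, had the largest difference of the clock genes. In T4 its normalized count was 43.4 in EDL replicate 2, 30.4 in psoas replicate 2, and 37.2 and 48.6 in soleus replicates 1 and 2. In T6 it was 156 and 218 in EDL replicates 4 and 5, 254 and 333 in psoas replicates 4 and 5, and 168.5 in soleus replicate 3. Every T6 library was thus above every T4 library, in all 3 muscles. The log2 fold change was 2.41 ± 0.27 (SE; edgeR quasi-likelihood test, adjusted p = 0.00117). Within muscles, the difference of mean log2 CPM (counts scaled to library size) was 2.01 in EDL, 3.20 in psoas and 1.94 in soleus. Its paralog Nr1d2 reached 964 to 2237 in T4 and 1413 to 3500.3 in T6, ranges that overlapped, and its log2 fold change of 0.30 ± 0.27 was not past the threshold (edgeR quasi-likelihood test, adjusted p = 0.515).

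The Period genes, whose proteins form the repressor complex of the loop, were lower in T6, and of these Per2 was called. Per2 had 188, 318, 119 and 261 normalized counts in the T4 libraries (EDL replicate 2, psoas replicate 2, soleus replicates 1 and 2). In T6 it had 34.9 and 55.5 in EDL replicates 4 and 5, 81.6 and 127 in psoas replicates 4 and 5, and 32.7 in soleus replicate 3. The ranges overlapped only through psoas replicate 5 and soleus replicate 1, 127 against 119, and within each muscle every T6 library was below every T4 library. The log2 fold change was -2.03 ± 0.29 (SE; edgeR quasi-likelihood test, adjusted p = 0.00467). Per1 had 433, 683, 262 and 409 in the same T4 libraries and 103, 245, 134, 346 and 167 in the T6 libraries in the same order. Its log2 fold change of -1.30 ± 0.32 missed the threshold of the call (edgeR quasi-likelihood test, adjusted p = 0.0348), as did the -0.86 ± 0.21 of Per3 (adjusted p = 0.0357), which ran from 166 to 277 in T4 and from 81.2 to 174 in T6.

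The cryptochromes Cry1 and Cry2, partners of the PER proteins in repression, gave groups that did not overlap. Cry1 had 211, 239, 198 and 234 normalized counts in the T4 libraries, again in the order EDL replicate 2, psoas replicate 2, soleus replicates 1 and 2. It had 101 and 86.6 in the EDL, 104 and 76.3 in the psoas and 107 in the soleus libraries of T6. The T4 libraries varied little from one another and were all well above those of T6, with a log2 fold change of -1.22 ± 0.19 (SE; edgeR quasi-likelihood test, adjusted p = 0.0069). Cry2 had 1095, 539, 691 and 892 in T4 against 316, 515, 356, 283 and 251 in T6. Its log2 fold change was -1.31 ± 0.26 and not called (edgeR quasi-likelihood test, adjusted p = 0.017).

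Dbp, the output factor of the loop, had 119, 41.1, 82.8 and 102 normalized counts in T4 and 203, 492, 167, 188 and 186 in T6. Every T6 library was above every T4 library, EDL replicate 5 by the widest margin, and the log2 fold change was 1.52 ± 0.32 (SE; edgeR quasi-likelihood test, adjusted p = 0.02, not called). Neither activator was called. Arntl ran from 422 to 1066 in T4 and from 304 to 789 in T6, with a log2 fold change of -0.40 ± 0.27 (adjusted p = 0.375, edgeR). Clock ran from 1407 to 1529 in T4 and from 956 to 1354 in T6, without overlap, but by a log2 fold change of -0.37 ± 0.16 (adjusted p = 0.168, edgeR).

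These 3 calls rest on few mice, since EDL and psoas libraries of equal number may come from the same animal. Without the psoas libraries the log2 fold changes were 2.03 for Nr1d1, -2.28 for Per2 and -1.105 for Cry1, with adjusted p of 0.0233, 0.0401 and 0.054 (edgeR), and 2 genes in all were called. Without the EDL libraries they were 2.63, -1.97 and -1.22, with adjusted p of 0.0225, 0.0782 and 0.0772 (edgeR), and 1 gene was called. When single libraries were left out, the call of Nr1d1 was lost without EDL replicate 2 (adjusted p = 0.0106, edgeR), and that of Per2 without EDL replicate 2 (0.0503), EDL replicate 4 (0.0128), psoas replicate 2 (0.0112), psoas replicate 4 (0.0119) or soleus replicate 3 (0.0246). The call of Cry1 was lost in 8 of 13 such fits, with an adjusted p (edgeR) of 0.0699 without EDL replicate 2, 0.0128 without EDL replicate 4, 0.0126 without EDL replicate 5, 0.0237 without psoas replicate 2, 0.0166 without psoas replicate 4, 0.0151 without psoas replicate 5, 0.0162 without soleus replicate 2 and 0.0262 without soleus replicate 3. Neither age nor sex was held equal between the codes. Xist, the RNA of the inactive X chromosome, was at a normalized count of 3.2 or less in the T4 libraries, at 1420 to 3920 in T5 and at 1.09 to 3340 in T6, so T6 holds libraries of both patterns. The part of age, sex and other differences between the codes in these values was not tested. Of the lists of markers for 10 cell types and fibre types, 1 gene was called between T6 and T4, Lep of the 7 adipocyte markers (higher in T6), and for every list the summed levels of T4 and T6 overlapped, as with 3125 to 10910 and 2426 to 7591 over the 7 macrophage markers. Both codes pool muscles that differ in these markers, so the overlap cannot show that cell content was alike. With muscle fitted, all 7 fast-fibre markers were higher in T6 and all 5 Schwann cell markers lower, none of them called. Every other list held markers of both signs, as with 6 of 7 macrophage markers lower. The part of cell content in the clock gene differences was not tested.

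**Figure D2:**
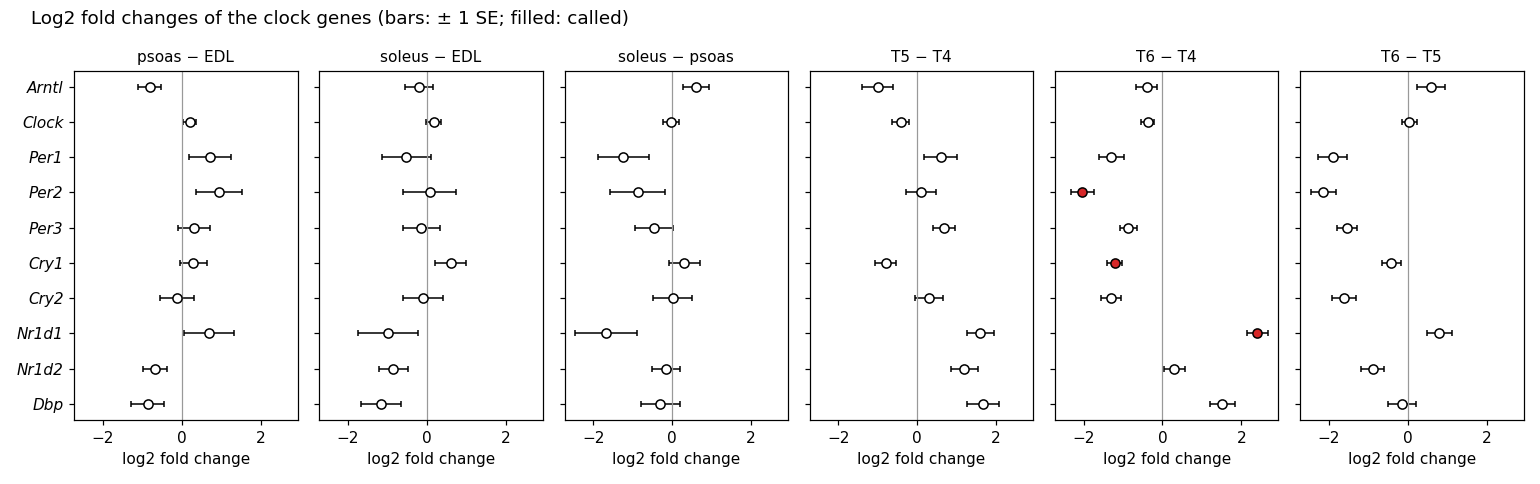
Log2 fold change (x axis) of each clock gene in the 3 comparisons between mdm muscles and the 3 comparisons between codes, with bars of 1 standard error from the edgeR fits and filled points for called genes. Filled points occur only in T6 against T4, for Per2 (-2.03), Cry1 (-1.22) and Nr1d1 (2.41).

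The upstream sequences of the clock genes that were called, and of the Period genes that were lower with them, are shown because E-boxes and D-boxes are elements through which the loop acts on itself. The printed genes do not all hold the same element. Cry2 and Dbp are not printed, although their adjusted p between T6 and T4 was lower than that of Per1 and Per3 (edgeR). RefSeq start-site windows (250 bases before to 50 after the start site, GRCm38.p6) were available for 9 of the 10 genes, Per2 excepted, and were searched on both strands for the E-box CACGTG, the E'-box CACGTT, the D-box TTATGTAA or TTACGTAA, the ROR element core TAGGTCA or TGGGTCA and the cAMP response element TGACGTCA. No searched match overlapped another. The 250 bases before the start site are printed 5′ to 3′ on the strand of the gene, with the matches in capitals. The Nr1d1 bases lie at chr11:98775378-98775627 (reverse strand), those of Cry1 at chr10:85185055-85185304 (reverse), those of Per1 at chr11:69098699-69098948 (forward, the first of 2 windows) and those of Per3 at chr4:151044666-151044915 (reverse).
Nr1d1: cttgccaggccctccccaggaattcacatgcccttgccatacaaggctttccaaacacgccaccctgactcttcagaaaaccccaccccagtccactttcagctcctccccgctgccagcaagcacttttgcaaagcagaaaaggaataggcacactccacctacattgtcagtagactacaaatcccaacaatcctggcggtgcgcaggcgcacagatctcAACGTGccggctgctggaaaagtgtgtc
Cry1: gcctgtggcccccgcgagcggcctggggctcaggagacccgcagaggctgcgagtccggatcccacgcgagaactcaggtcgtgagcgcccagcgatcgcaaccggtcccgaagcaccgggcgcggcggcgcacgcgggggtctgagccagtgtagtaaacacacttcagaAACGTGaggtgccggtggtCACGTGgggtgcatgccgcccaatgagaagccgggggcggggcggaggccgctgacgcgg
Per1: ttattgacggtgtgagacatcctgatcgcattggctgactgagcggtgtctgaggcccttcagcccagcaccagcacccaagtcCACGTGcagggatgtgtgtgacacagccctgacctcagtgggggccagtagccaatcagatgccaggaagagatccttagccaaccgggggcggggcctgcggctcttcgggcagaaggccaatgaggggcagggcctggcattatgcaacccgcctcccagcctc
Per3: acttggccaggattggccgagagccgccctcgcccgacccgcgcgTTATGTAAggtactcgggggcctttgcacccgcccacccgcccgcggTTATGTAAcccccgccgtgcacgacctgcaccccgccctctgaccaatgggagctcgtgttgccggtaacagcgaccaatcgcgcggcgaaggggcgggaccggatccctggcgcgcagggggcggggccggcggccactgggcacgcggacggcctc
Nr1d1 holds an E'-box at -28 from the start site, Cry1 an E'-box at -79 and an E-box at -60, Per1 an E-box at -166, and Per3 a pair of D-boxes at -205 and -158. Outside these, Cry2 holds an E'-box at -166 and Arntl, in the second of its 2 windows, a ROR element core at 31 past the start site. The windows of Clock, Nr1d2 and Dbp hold no match, which says only that these letters are not in these windows. Of all 27025 genes with a window, 8.09% have the E-box, 5.44% the E'-box, 1.23% the D-box, 7.35% the ROR element core and 2.03% the cAMP response element in at least 1 window.

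In the T5 libraries, from 1 EDL and 1 psoas muscle, Per1 and Per3 were higher than in the T4 library of the same muscle and Cry1 was lower, while Per2 and Cry2 differed in sign between EDL and psoas. T5 held 187 and 433 normalized counts of Per2 (EDL, then psoas replicate 3), 545 and 1083 of Per1, 303 and 413 of Per3, 834 and 1225.5 of Cry2, and 91.6 and 157 of Cry1. Nr1d1 was at 106 and 152 and Dbp at 279 and 227, above every T4 library, and Nr1d2 at 4684 and 3089, also above every T4 library. No clock gene was called between T5 and T4 by edgeR (0.0234% of all genes were), while 6 of the 10 had an unadjusted p under 0.05, against 12.4% of all genes. DESeq2 called Nr1d1 (log2 fold change 1.61, adjusted p = 0.0042; 0.574% of all genes called). In 7 of the 10 the groups did not overlap, against 13.9% of all genes.

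Between T6 and T5, the Period genes and Cry2 were lower in T6. The log2 fold changes were -2.14 ± 0.32 for Per2, -1.90 ± 0.37 for Per1, -1.61 ± 0.30 for Cry2 and -1.53 ± 0.26 for Per3 (SE). Their adjusted p from edgeR were 0.0104, 0.0272, 0.0223 and 0.0161, so no clock gene was called (0.34% of all genes were), and these 4 passed an adjusted p of 0.05, against 2.79% of all genes. All 4 lay below both T5 libraries in every T6 library, and with Nr1d1, which lay above, made 5 of 10 genes without overlap, against 18.6% of all genes. Leaving out psoas replicate 1, soleus replicate 1 or soleus replicate 2 brought Per2 past the threshold (adjusted p of 0.00988, 0.00732 and 0.00586 from edgeR), and leaving out soleus replicate 1 or soleus replicate 3 did so for Per3 (0.00782 and 0.00868). Per2 was also called with DESeq2 size factors in edgeR (adjusted p = 0.00921; 0.357% of all genes called), and DESeq2 called Per1, Per2, Per3 and Cry2 (adjusted p of 0.000213, 1.84e-06, 3e-05 and 0.000117), where it called 3.18% of all genes. With limma voom and the replicate number as a random block, Per2 (-2.145, adjusted p = 0.00557) and Per3 (-1.53, adjusted p = 0.00717) were called, with 0.814% of all genes. The correlation within these blocks was estimated at -0.129, so that fit does not guard against alike libraries from 1 mouse. Its blocks also join the EDL and psoas libraries numbered 1, which differ in code. Nr1d2 also had a negative log2 fold change, -0.89 ± 0.29 (adjusted p = 0.118, edgeR), with the same sign in EDL (-0.77) and psoas (-0.85). These comparisons share T4, T5 or T6 libraries with one another, so their values are set side by side only. Dbp was close in T5 and T6, with a log2 fold change of -0.15 ± 0.35, and Cry1 differed by -0.41 ± 0.24.

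The order of the codes was not the same for every gene, and ratios of raw counts within a library, which do not depend on the size factors, show this. The ratio of Nr1d1 to Cry1 was 0.128 to 0.207 in the 4 T4 libraries, 0.971 to 1.15 in T5 and 1.54 to 4.37 in T6, and the single T1 and T3 libraries stood at 2.90 and 3.52. The ratio of Per2 to Nr1d1 was 3.20 to 10.4 in T4, 1.77 to 2.85 in T5 and 0.194 to 0.381 in T6, with 0.683 in T1 and 0.608 in T3. T4, T5 and T6 did not overlap in either ratio. Nr1d1 was called higher in T6 than in T4, and Cry1 and Per2 lower, so the gap between T4 and T6 repeats those calls. The gap adds no support to them, and no share over other gene pairs was computed. In each of the other ratios computed some codes overlapped, with Per2 to Cry1 at 0.603 to 1.33 in T4, 2.04 to 2.77 in T5 and 0.306 to 1.66 in T6, and Dbp to Cry1 at 0.172 to 0.562, 1.45 to 3.04 and 1.60 to 5.69 in the same order. T1 and T3 had high Nr1d1 (292 and 543 normalized counts) together with Per2 levels in or above the T4 range (199 and 329.8).

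**Figure D3:**
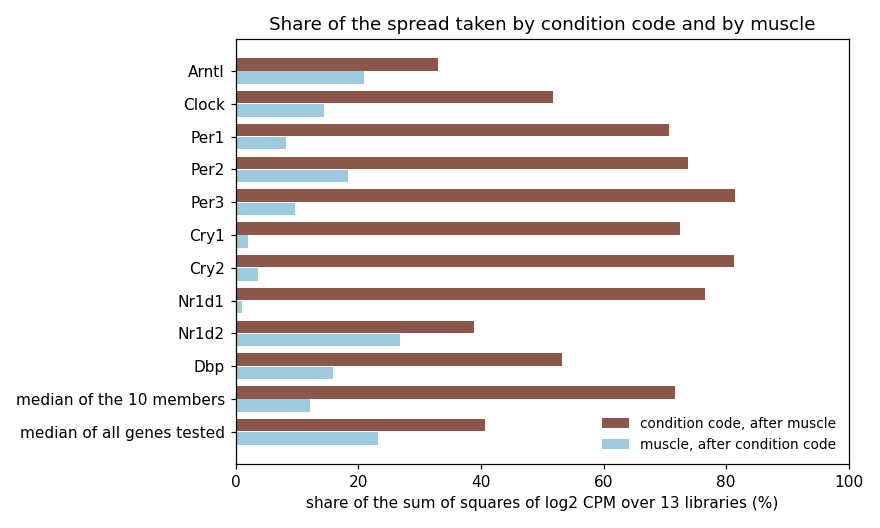
Share (%) of the sum of squares of log2 CPM over the 13 libraries taken by the condition code once muscle is fitted, and by muscle once the code is fitted, for each clock gene, with the median of the 10 and of all genes tested. The code took more than the muscle for every clock gene, and the medians of all genes tested were 40.6% for the code and 23.2% for the muscle.

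Over all 5 codes, a joint test of the code in the fit with muscle called Nr1d1 (adjusted p = 0.00272, edgeR) and Per2 (adjusted p = 0.00841), 2 of 10 against 1.69% of all genes. Per1, Per2, Per3, Cry1, Cry2 and Nr1d1 had an adjusted p under 0.05, 6 of 10 against 11.6%. The call of Per2 in this test was lost when any 1 of EDL replicates 2, 3, 4 or 5, psoas replicates 2, 3, 4 or 5 or soleus replicate 3 was left out, with adjusted p of 0.0212, 0.0207, 0.021, 0.0154, 0.0118, 0.0217, 0.0238, 0.0137 and 0.0224 in that order (edgeR). Per3 was called without soleus replicate 1 (0.00918) or soleus replicate 3 (0.00937). With muscle fitted first, the code took 71.6% of the sum of squares of log2 CPM in the median clock gene and 40.6% in the median of all genes. The share was 81.4% for Per3, 81.3% for Cry2, 76.6% for Nr1d1, 73.8% for Per2, 72.5% for Cry1, 70.6% for Per1, 53.3% for Dbp and 51.8% for Clock. It was 38.9% for Nr1d2 and 33.0% for Arntl. With the code fitted first, muscle took 12.1% in the median clock gene, from 1.12% for Nr1d1 to 26.8% for Nr1d2, and 23.2% in the median of all genes. The codes are 5 and the muscles 3, so the code has more terms to fit with.

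**Figure D4:**
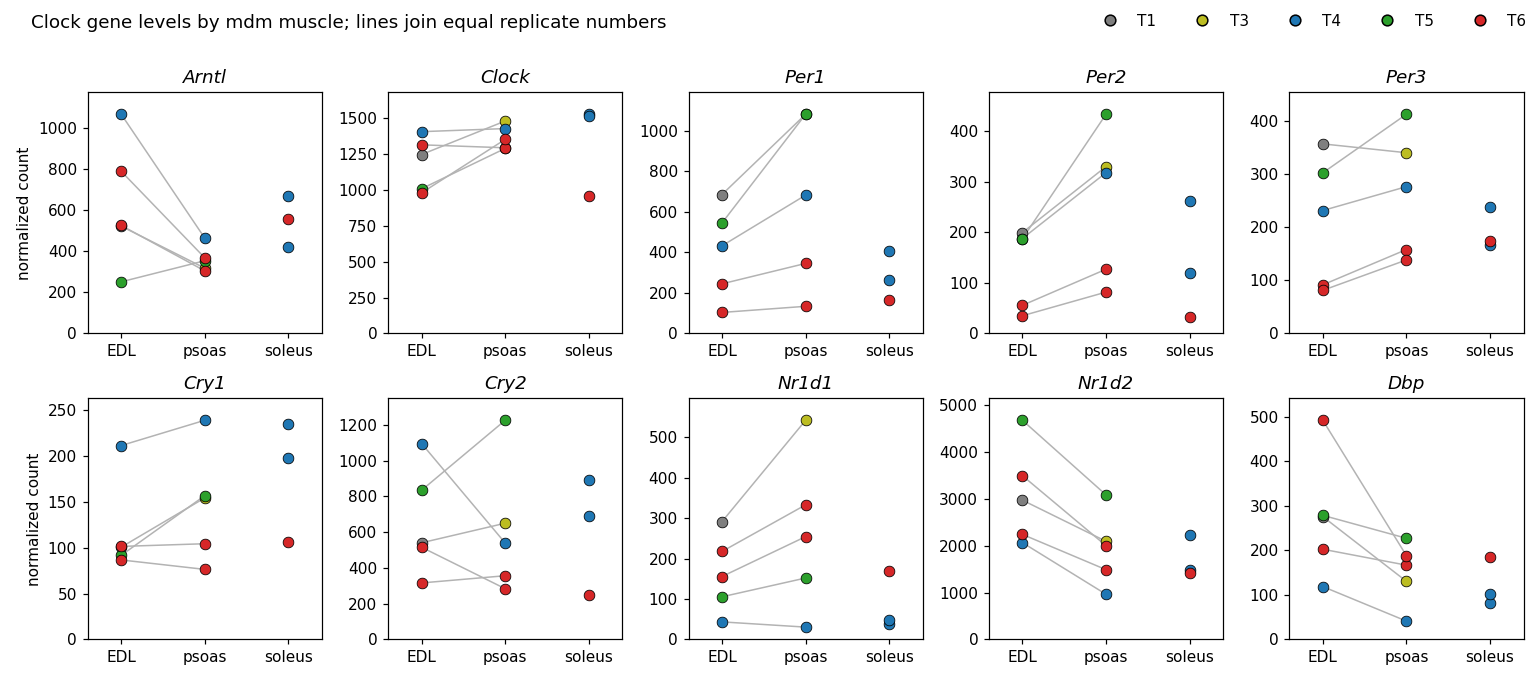
Normalized count (linear axis from 0) of each clock gene by mdm muscle, 1 point per library coloured by condition code, with lines joining EDL and psoas libraries of equal replicate number. Per1 and Per2 rise along all 5 lines from EDL to psoas, and Nr1d2 and Dbp fall along all 5.

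To ask whether the mdm muscles differed in clock gene expression, the 3 muscles were compared in a fit with muscle as the only factor. None of the 10 clock genes was called in psoas against EDL, soleus against EDL or soleus against psoas, where 4.93%, 0.978% and 0.0762% of all genes were called by edgeR. At an unadjusted p under 0.05, 2 clock genes passed in psoas against EDL (Arntl and Nr1d2), 2 in soleus against EDL (Nr1d2 and Dbp) and 0 in soleus against psoas, against 33.3%, 15.1% and 12.7% of all genes. DESeq2 also called none of them, where it called 9.35%, 3.73% and 1.01% of all genes. No clock gene gave muscles whose libraries did not overlap, against 13%, 11.0% and 10.2% of all genes.

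The muscle means of the activator Arntl were 630.4 ± 309 normalized counts in EDL (SD, n = 5), 361 ± 62.6 in psoas (n = 5) and 549 ± 123 in soleus (n = 3). The log2 fold change of Arntl in psoas against EDL was -0.81 ± 0.30 (SE; adjusted p = 0.0724, edgeR). Dbp had 274 ± 139 in EDL, 151 ± 70.6 in psoas and 123.5 ± 54.7 in soleus, a log2 fold change in soleus against EDL of -1.15 ± 0.51 (adjusted p = 0.293, edgeR). Nr1d2 had 3095 ± 1058 in EDL, 1929 ± 791 in psoas and 1712 ± 457 in soleus. Per2 had 133 ± 80.5, 258 ± 148 and 138 ± 116 in the same order. Nr1d1 had 163 ± 96.5, 263 ± 193 and 84.8 ± 72.7. For Per2 and Nr1d1 the SD within a muscle was about as large as the difference between muscles. The soleus libraries are 2 of T4 and 1 of T6, so a soleus mean mixes codes in other proportions than an EDL or psoas mean.

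EDL and psoas libraries of equal number deviated together from their muscle means, so psoas and EDL were also compared with the replicate number as a block. Per2 was then the 1 clock gene of 10 called and was higher in psoas, against 7.42% of all genes called. The count is near that share, so it does not set the clock genes apart from other genes. With the condition code as the block, Per2 was not called (log2 fold change 1.096 ± 0.29, adjusted p = 0.0199, edgeR; 6.48% of all genes called). The log2 difference of Per2 between psoas and EDL was 0.74, 0.72, 1.20, 1.22 and 1.17 for replicates 1 to 5, higher in psoas in 5 of 5 pairs. Its log2 fold change was 1.015 ± 0.16 in the blocked fit (SE; adjusted p = 0.00406, edgeR) and 1.08 ± 0.19 over pairs 2 to 5 (adjusted p = 0.00935, edgeR; 3.77% of all genes called). The second fit was made because the libraries numbered 1 differ in code, age and sex-linked genes and are not from 1 animal. Per1 was also higher in 5 of 5 pairs, by 0.39 to 0.98, but its 0.65 ± 0.14 was not past the threshold (adjusted p = 0.0117, edgeR with the block). Nr1d2 and Dbp were lower in psoas in 5 of 5 pairs. Their log2 fold changes were -0.71 ± 0.17 and -0.90 ± 0.23, with adjusted p of 0.0152 and 0.0197 in the same blocked fit (edgeR), and neither was called. Over pairs 2 to 5 the log2 fold changes were 0.63 ± 0.17 for Per1, -0.78 ± 0.19 for Nr1d2 and -0.87 ± 0.27 for Dbp. The adjusted p of these 3 genes were then 0.0327, 0.0227 and 0.0465 (edgeR), and none was called. Without the block, the log2 fold change of Per2 was 0.95 ± 0.59 (adjusted p = 0.278, edgeR). Markers of other cells differed between these muscles too. The summed normalized count of 5 Schwann cell markers was 1222 to 2428 in EDL and 4044 to 28820 in psoas (3 of 5 called), that of 5 mesothelial markers 41.8 to 121 and 255 to 1050 (4 of 5 called), and that of 7 fast-fibre markers 629600 to 1568000 and 106300 to 288300 (4 of 7 called, all lower in psoas). Upk3b and Wt1 of the mesothelial and Sox10 of the Schwann cell markers were at 0 in at least 1 library. The part of these cells in the Per2 difference was not tested.

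The effect of the code was compared between muscles in the T4 and T6 libraries by an interaction of muscle and code. The interaction called no gene at all by edgeR, with 1038 of 17069 genes at an unadjusted p under 0.05, and among the clock genes the lowest unadjusted p was 0.0785 (Per3). That fit left 3 residual degrees of freedom. The difference of mean log2 CPM between T6 and T4 in Per3 was -1.45 in EDL, -0.89 in psoas and -0.20 in soleus. In Per2 it was -2.10, -1.63 and -2.39, and in Cry1 -1.20, -1.40 and -1.01. For Per1, Per2, Per3, Cry1, Cry2, Clock, Nr1d1 and Dbp it had the same sign in all 3 muscles, while Arntl (0.07) and Nr1d2 (-0.37) had the other sign in soleus.

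Other genes around the clock were taken from lists of accessory transcription factors, modifiers of clock proteins, outputs, temperature-linked genes, glucocorticoid targets and immediate early genes, 85 genes of which 84 were tested (Fbxl21 has no row in the files used). Between T6 and T4, 8 of the 84 were called, all lower in T6, against 0.709% of all genes called lower. Of the 13 accessory transcription factors 1 was called, Nfil3, the repressor at D-boxes, which had 1017 to 1695 normalized counts in T4 and 237 to 672 in T6. Its log2 fold change was -1.95 ± 0.27 (SE; adjusted p = 0.00319, edgeR), and it was also called between T6 and T5 (-2.14 ± 0.31, adjusted p = 0.00745, edgeR). The ROR factor Rora (-1.06 ± 0.21, adjusted p = 0.0172) and the PAR bZIP factor Hlf (-1.13 ± 0.28, adjusted p = 0.0381) came next in p in T6 against T4 and were not called (edgeR). Of the 19 outputs Noct, which encodes the rhythmic phosphatase nocturnin, was called, with 7295 to 8843 in T6 and 16050 to 22310 in T4 (-1.36 ± 0.18, adjusted p = 0.00254, edgeR). The cell cycle kinase Wee1 (-1.87 ± 0.34, adjusted p = 0.0111) and the phosphatase Dusp1 (-1.92 ± 0.41, adjusted p = 0.0224) were not called (edgeR). None of the 21 tested modifiers of clock proteins was called. Those with the lowest p were the casein kinase genes Csnk1e (-0.83 ± 0.16, adjusted p = 0.0158, edgeR) and Csnk1d (-0.68 ± 0.17, adjusted p = 0.0367) and the deacetylase Sirt1 (-0.60 ± 0.14, adjusted p = 0.0303).

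**Figure D5:**
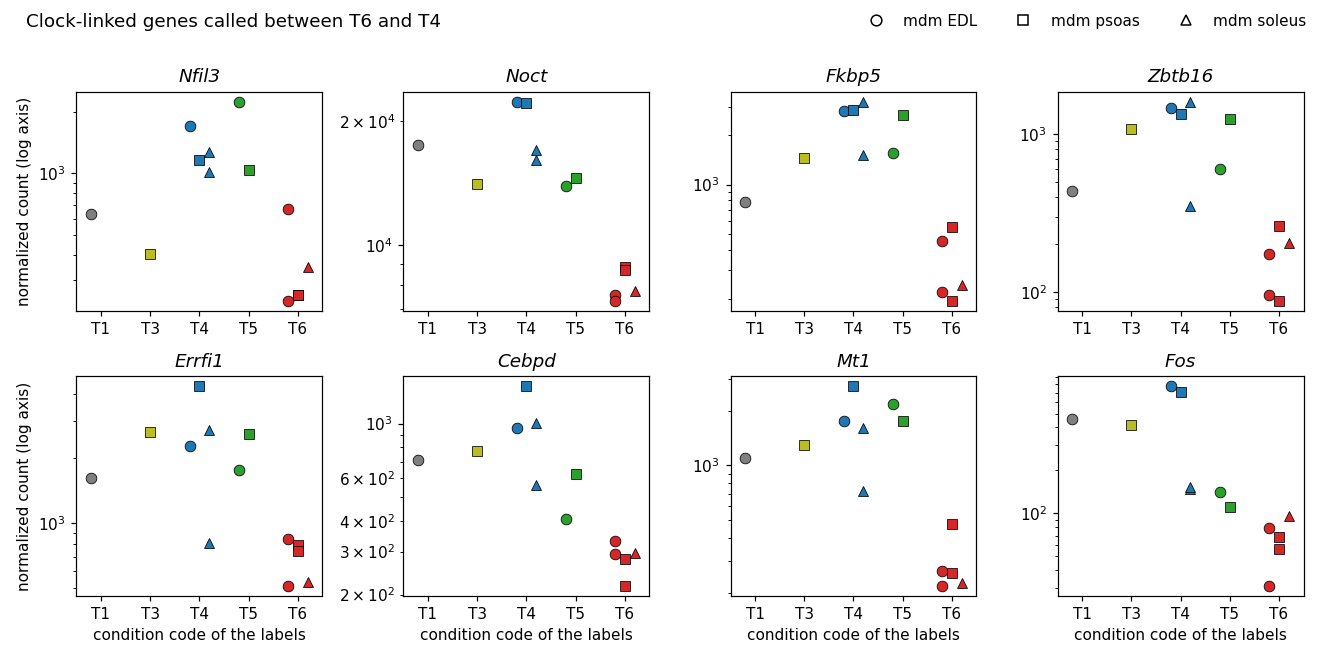
Normalized count (log axis) of the 8 listed genes called between T6 and T4, by condition code, with the shape giving the muscle. Except for Errfi1 (512 to 843 against 814 to 4331), the 5 T6 libraries lie below the 4 T4 libraries, with Fkbp5 at 193 to 553 against 1514 to 3222.

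Of the 12 genes listed as glucocorticoid targets, 5 were called between T6 and T4, all lower in T6, against 0.709% of all genes called lower. The list takes in genes known to respond to the adrenal hormones that rise and fall daily, and the receptor gene Nr3c1. Like the other lists, it was chosen with earlier results of these data known. The median log2 fold change of the 12 was -1.94, with 11 of 12 negative, beside a median of 0.0085 over all genes tested. Fkbp5, a co-chaperone of the glucocorticoid receptor, had the lowest log2 fold change of the 5 (-3.11 ± 0.37, adjusted p = 0.00148, edgeR), followed by the transcription factor Zbtb16 (-2.93 ± 0.47, adjusted p = 0.00719). The metallothionein Mt1 (-2.73 ± 0.29, adjusted p = 0.000962, edgeR) was at 218 to 475 in T6 and 724 to 2722 in T4. Errfi1, a feedback inhibitor of EGF receptors (-2.02 ± 0.32, adjusted p = 0.0069), and the transcription factor Cebpd (-1.87 ± 0.24, adjusted p = 0.00268) completed the 5 (edgeR). Against T5, Mt1 alone of the 12 was called in T6 (-2.71 ± 0.34, adjusted p = 0.00418, edgeR), with all 12 log2 fold changes negative and a median of -1.65. Of the 10 immediate early genes Fos was called between T6 and T4 (-2.75 ± 0.47, adjusted p = 0.00941, edgeR). Its relative Fosb (-2.72 ± 0.56, adjusted p = 0.0188) and the nuclear receptor Nr4a1 (-1.46 ± 0.37, adjusted p = 0.038) were not called (edgeR). None of the 9 temperature-linked genes was called between T6 and T4, where Hsp90aa1 (-0.46 ± 0.19, adjusted p = 0.158), Hsph1 (-0.46 ± 0.20, adjusted p = 0.171) and Rbm3 (0.50 ± 0.22, adjusted p = 0.177) had the lowest p (edgeR). No gene of the 84 was called between T5 and T4. In the joint test over all codes 10 of 84 were called, against 1.69% of all genes, and 5 of these were the heat-shock genes Hspa1a, Hspa1b, Hsph1, Hsp90aa1 and Dnajb1. Each of these 5 was highest in EDL replicate 1, the single T1 library, as with 1704 normalized counts of Dnajb1 against at most 244.6 in the other libraries and 3774 of Hsph1 against at most 1198. The test of the 5 without that library was not made. The other 5 were Nfil3, Noct, Fkbp5, Mt1 and Fosb.

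Between the muscles, 7 of the 19 outputs were called in psoas against EDL, against 4.93% of all genes. Lower in psoas were the titin cap gene Tcap (log2 fold change -1.75 ± 0.38, adjusted p = 0.00882), the glucose transporter gene Slc2a4 (-1.57 ± 0.29, adjusted p = 0.0036), the hexokinase gene Hk2 (-1.38 ± 0.31, adjusted p = 0.00936) and Pdp1 (-1.13 ± 0.24, adjusted p = 0.0082), which encodes a phosphatase of pyruvate dehydrogenase (edgeR). Skeletal muscle markers were lower in psoas as well, with a sum over 6 markers of 741200 to 1366000 in EDL and 279600 to 602600 in psoas and 2 of 6 called (Ckm and Tnnt3), and the part of this in the lower output genes was not tested. Higher in psoas were the myogenic factor Myod1 (log2 fold change 1.58 ± 0.23, adjusted p = 0.00137), the cell cycle inhibitor Cdkn1a (1.47 ± 0.28, adjusted p = 0.00429) and the cytochrome P450 reductase gene Por (1.75 ± 0.28, adjusted p = 0.00185, edgeR). In soleus against EDL 1 of 84 was called, against 0.978% of all genes. It was the glycogen synthase gene Gys2 (3.27 ± 0.60, adjusted p = 0.00872, edgeR), with 80.8 to 138 in soleus and 4.68 to 28.1 in EDL. The sum over 7 adipocyte markers was 55900 to 84820 in soleus and 9410 to 28650 in EDL, with 3 of 7 called, all higher in soleus. The part of this in the Gys2 difference was not tested. In soleus against psoas none was called. Gys2 had 20.8 to 117 normalized counts in psoas.

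As a description of which genes followed the clock genes most closely, log2 CPM values minus the mean of the muscle were correlated over the 13 libraries. These libraries share codes and possibly mice, so no test is attached. Within the clock genes, Per1 and Per2 had the highest r (0.908), followed by Per2 and Cry2 (0.874), Per1 and Per3 (0.85) and Per2 and Per3 (0.834). Nr1d1 and Dbp had an r of 0.782. Cry1 ran against both, with -0.768 for Nr1d1 and -0.776 for Dbp. The 5 genes of highest r with Arntl were Sirt6 (0.917), Gm4799, Bcl2l12, BC037039 and Zfp763 (0.842), and those of lowest r were Gm14565 (-0.90), Gm37768, Gm6645, Gm3636 and Lbr (-0.841). Of the 5 highest, Zfp763 alone had a mean normalized count above 100 (111). For Dbp the highest were 2210408I21Rik (0.95), Tceal1, Cyb5r4, Cntnap4 and Pik3r3 (0.889), and the lowest were Rgs1 (-0.928), Aoah, Wdfy2, H2-D1 and Cd163 (-0.898). Cd163 is a marker of resident macrophages.

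Some clock genes share exon bases with a neighbour on the opposite strand in GENCODE mouse release 21. Nr1d1 (chromosome 11, 98767932 to 98775333, GRCm38) shares 263 bases, 8.55% of its exons, with the thyroid hormone receptor gene Thra. Dbp (chromosome 7, 45705088 to 45710203) shares 539 bases, 18.0% of its exons, with the sphingosine kinase gene Sphk2, and Cry2 (chromosome 2, 92403646 to 92434043) shares 295 bases with D930015M05Rik. The libraries keep strand, but whether the counting used it is not given in the sources used here. Between T6 and T4 the log2 fold change was 0.08 ± 0.15 for Thra and -0.20 ± 0.20 for Sphk2, beside 2.41 for Nr1d1 and 1.52 for Dbp. The mean normalized count of D930015M05Rik was 7.02.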

How the data were processed

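RNA was extracted from whole muscles of mdm mice, and stranded total RNA libraries (ribosomal RNA depleted) were sequenced as paired-end reads in several runs, which the labels do not map to libraries. Libraries with low base quality were filtered with Trimmomatic (0.32), the others were used unfiltered, and reads were aligned with TopHat2 (2.1.1) to GRCm38.p4, per the submitters' processing notes. The authors counted reads over genes with Bioconductor packages, and the raw counts were deposited without normalization. The deposited signal values are normalized counts that the authors obtained by dividing each count by a DESeq2 size factor of the library, and these were used for levels. Whether the counting used strand, and how it treated overlaps, is not given in the sources used here.

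Tests covered genes that reached a normalized count of 10 in 3 or more libraries (17069 of 17924). A GENCODE symbol was found for 17833 of the 17924. Counts were fitted with edgeR 4.0.16 (TMM, quasi-likelihood test, R 4.3.3), with muscle alone for the muscles (10 residual degrees of freedom) and with muscle and code for the codes (6). P-values were adjusted by the Benjamini-Hochberg method, and a call needed an adjusted p below 0.01 with a log2 fold change beyond 1 in either direction (joint test: adjusted p alone). Log2 CPM used a prior count of 2. Alternatives were DESeq2 1.42.0, limma 3.58.1 (trend with a pseudocount of 1, voom), other filters and normalization, blocks and left-out libraries. On simulated data with 200 of 17069 genes changed 8-fold, 100% of these were recovered in the comparisons simulated (psoas against EDL, T6 against T4 and the joint test). The simulated libraries were independent, with the same setting of spread for every gene, and smaller changes were not simulated. This recovery therefore does not speak for smaller changes or for libraries that share a mouse. Python 3.11.15 made tables and plots.

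The members and lists were chosen with earlier results of these data known. Named besides the members were every listed gene called, the genes of lowest p up to 3 per list (given for T6 against T4), the 5 genes of highest and lowest correlation with Arntl and Dbp, and overlapping genes. A result that the rule would name is not reported here. EDL and psoas libraries of equal number correlated in their deviations from the muscle means (r of 0.407, 0.37, 0.316, 0.289 and 0.371 for numbers 1 to 5, each above 0.1), and were taken as pairs on that ground. Unequal numbers of EDL and psoas reached an r of up to 0.237 (EDL replicate 5 with psoas replicate 4). Number 1 also passed, although its libraries are not from 1 animal, so the correlation does not show that a pair shares a mouse. Soleus numbers did not pair with equal numbers of EDL or psoas (r from -0.302 to 0.421). Soleus replicate 3 reached an r of 0.442 with EDL replicate 4 and 0.291 with psoas replicate 5, all of T6. Whether these libraries share a mouse is not known, and the fits without the psoas or the EDL libraries kept soleus replicate 3. The labels name no mice, so p-values measure the spread between these libraries. No pair of libraries within a group was a duplicate.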

Additional observations from a re-analysis of the deposited data

Results flagged for a closer look

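In 40 groups of 4 or 5 libraries, 2 single libraries stood far from the rest, where chance gives about 1 in 20. Cry1 was at a normalized count of 211.2 in EDL replicate 2, the T4 library of that muscle, and at 86.56 to 101.3 in the other EDL libraries. Dbp was at 492.3 in EDL replicate 5 and at 166.8 to 202.6 in the other T6 libraries. The difference of log2 CPM between T5 and T4 had opposite signs in the muscles for 2 clock genes. For Per2 it was -0.01338 in EDL and 0.4582 in psoas, and for Cry2 -0.4027 in EDL and 1.196 in psoas. With 1 library per code and muscle, the difference between the muscles was not tested.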

How the results depend on the processing

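Of 1410 values of clock genes over the alternatives, 1311 kept their direction and their side of the threshold, 25 passed it, 29 no longer passed it and 45 changed sign. The cause of these changes was not tested. The number of genes called was, for the muscles, 841 (psoas against EDL), 167 (soleus against EDL) and 13 (soleus against psoas), and for the codes 197 in T6 against T4, 4 in T5 against T4, 58 in T6 against T5 and 288 in the joint test. DESeq2 called 1586, 633, 171, 622, 98, 542 and 2915 in the same order. With the replicate block, 1267 genes were called in psoas against EDL, and Per2 was the only clock gene whose call that block changed in the muscle comparisons. In the soleus comparisons this block joined soleus replicates 1 and 3 with EDL and psoas libraries of other codes. Soleus numbers did not pair, so the replicate block does not stand for shared mice there. With the code as a block, 86 genes were called in soleus against EDL and 6 in soleus against psoas. With libraries of the muscles compared alone, 557 were called for psoas against EDL and 8 for soleus against psoas, and limma-trend called 20 in the latter. With voom and the replicate number as a random block, whose estimated correlation was -0.129, 317 were called in T6 against T4 and 139 in T6 against T5. Without the psoas libraries 2, 0 and 0 genes and without the EDL libraries 1, 0 and 0 genes were called in T6 against T4, T5 against T4 and T6 against T5, alternatives chosen after seeing the data. Leaving out 1 library gave 317 to 802, 19 to 182, 3 to 21, 19 to 221, 0 to 6, 0 to 74 and 92 to 274 called genes in the order above. Changes of sign concerned log2 fold changes that were not called. In soleus against EDL they were Per2 with limma-trend (-0.07605), the code block (-0.04745) and the replicate block (-0.5625), Per3 with limma-trend (0.08295) and the code block (0.3426), and Nr1d1 with the code block (0.07285). In soleus against psoas they were Cry1 (-0.0434), Cry2 (-0.06953), Nr1d2 (0.344) and Dbp (0.4928) with the code block and Cry2 (-0.3442) and Dbp (0.09533) with the replicate block. Without the psoas libraries they were Per2 (-0.1604) and Cry2 (-0.5039) in T5 against T4 and Cry1 (0.08088) and Dbp (0.253) in T6 against T5, and without the EDL libraries Clock (-0.04602) in the last. Leaving out 1 library gave ranges through 0 for Cry2 in psoas against EDL (-0.5221 to 0.1533). In soleus against EDL it did so for Arntl (-0.398 to 0.08666), Per2 (-0.7536 to 0.5169), Per3 (-0.3447 to 0.1291) and Cry2 (-0.4761 to 0.2657), and in soleus against psoas for Clock (-0.1394 to 0.1563), Cry2 (-0.3674 to 0.4193) and Nr1d2 (-0.4127 to 0.064). In T5 against T4 it did so for Per2 (-0.1794 to 0.1985) and Cry2 (-0.335 to 0.825), and in T6 against T5 for Arntl (-0.06171 to 1.505), Clock (-0.0566 to 0.1593), Cry1 (-0.7382 to 0.02087) and Dbp (-0.5268 to 0.3194). At the lowest raw count of 19 (Per2, soleus replicate 3), counting error limits the value of that library.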
